A study of Mus musculus with 2 samples.

Results

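Neuronal identity transcription factors are nuclear proteins that set and maintain the type of a neuron. The 9 genes described here were taken by name from cortical, cerebellar and general neuronal factors: Neurod1, Neurod2, Neurod6, Tbr1, Bcl11a, Bcl11b, Mef2c, Nfia and Nfib. They are 9 of the 45578 mouse genes in the table. For a gene with several transcripts, the one with the most counts in the libraries together stands for it, and all 9 genes were found and had counts in both. The material was whole brain at postnatal day 5 from control mice of the genotype Smn+/-; SMN2tg/0, which lack 1 working copy of the mouse Smn gene and carry a human SMN2 transgene on a congenic FVB background. Ribosome-protected fragments were taken with RiboLace, a pull-down in which a puromycin analogue on beads captures translating ribosomes, and size selected at 25 to 35 nucleotides. There were 2 biological replicates of this 1 group and no other condition, so only the replicates can be compared with each other. No matched total RNA was analysed here, so a footprint level reflects the amount of messenger RNA and its translation together. In whole brain, fewer cells of a type and less RNA per cell cannot be told apart.

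The NeuroD proteins are basic helix-loop-helix factors that pair with E proteins on DNA. Tbr1 is a T-box factor of early-born glutamatergic neurons, and Bcl11a and Bcl11b are zinc finger proteins found in BAF chromatin remodelling complexes. Mef2c is a MADS-box factor whose activity responds to calcium entry, and Nfia and Nfib are nuclear factor I proteins that act in neurons and in the glial lineage. At this age, projection neurons of the cortex are in place and extending connections, while granule neurons of the cerebellum are still being made.

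Footprints on all 9 messengers were seen in both libraries, at low counts. Summed over genes, replicate 1 held 343552 counts and replicate 2 held 120282. Abundances are in CPM, counts scaled to a common library size, on which 1 count of replicate 1 weighs 2.71 and 1 of replicate 2 weighs 8.93. The 9 genes held 335 counts in replicate 1, or 0.0975% of the gene total (95% Wilson interval 0.0876 to 0.109). They held 92 counts in replicate 2, or 0.0765% (0.0624 to 0.0938), and the intervals of the replicates overlapped. The mean share was 0.087% ± 0.0149 (SD, n = 2). Intervals here and below are computed from the counts and cover counting error only. The reads carry no molecular identifiers, so duplicate reads of the same fragment could not be told apart. As a check of the tissue, all 6 of 6 preset neuronal markers had counts in both libraries, with a summed abundance of 5756 CPM and 6769 CPM. Astrocyte and radial glia markers summed to 2775 CPM and 3134 CPM, with 6 of 6 seen in both libraries. Oligodendrocyte lineage markers summed to 493 CPM and 563 CPM, with 5 of 6 seen in both, and erythroid markers to 3816 CPM and 4134 CPM, with 5 of 6. Endothelial markers summed to 195 CPM and 286 CPM, with 6 of 6, and microglial markers to 160 CPM and 143 CPM, with 4 of 6. The part of these cell types in the levels of the 9 genes was not tested. No marker in these lists was at 0 in both libraries.

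Levels of different genes are given below as CPM per kilobase of coding sequence, since a longer coding sequence holds more ribosomes. The counts are per transcript and have no positions, so fragments outside the coding sequence could not be set apart. On this scale the order was Mef2c, Neurod6, Neurod2, Nfib, Neurod1, Tbr1, Bcl11b, Bcl11a and Nfia. The mean level ran from 31.6 for Nfia to 108 for Mef2c, with a median over the 9 genes of 57.2. Over the 4294 coding genes that averaged 10 counts or more and whose chosen transcript has a coding sequence, the median was 62.3. Over the 13653 coding genes with such a transcript and any count it was 15.0. Among the former, Mef2c stood above 67.0% of genes and Nfia above 25.6%.

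**Figure D1:**
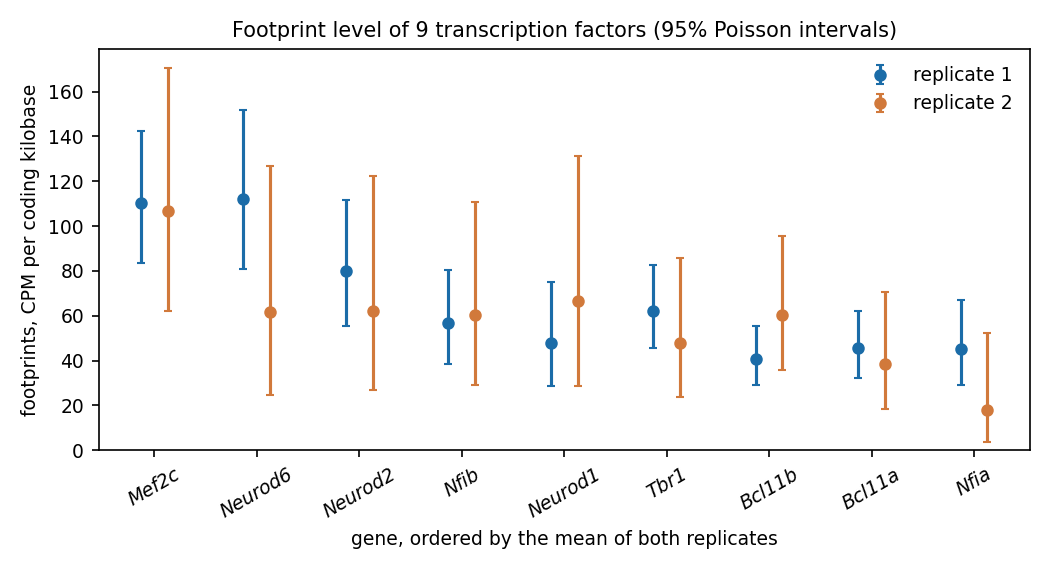
Footprint level of each of the 9 genes in CPM per coding kilobase (vertical axis, from 0), with 1 point for each replicate and 95% exact Poisson intervals of the count as bars. Mef2c is near 110 in both replicates, while Neurod6 is at 112 in replicate 1 and 61.6 in replicate 2. The intervals of the shallower replicate 2 are wide.

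Among the NeuroD genes, Neurod6 and Neurod2 are markers of forebrain glutamatergic neurons and Neurod1 is best known in brain from cerebellar and hippocampal granule neurons. Each was listed with 1 transcript, so their counts involve no choice of isoform. Neurod6 (ENSMUSG00000037984, coding sequence of 1014 nucleotides) had 42 counts in replicate 1 and 7 in replicate 2. Its level was 112 CPM per coding kilobase (95% Poisson interval 80.9 to 152) in replicate 1 and 61.6 (24.8 to 127) in replicate 2, with a mean of 86.9 ± 35.8 (SD, n = 2). Among the 9 genes Neurod6 ranked 1 in replicate 1 and 4 in replicate 2, but its intervals in the libraries overlapped.

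Neurod2 (ENSMUSG00000038255, coding sequence of 1152 nucleotides) had 34 and 8 counts. Its level was 80.0 CPM per coding kilobase (55.4 to 112) in replicate 1 and 62.0 (26.8 to 122) in replicate 2, a mean of 71.0 ± 12.7 (SD, n = 2), in the third place in each library. Neurod1 (ENSMUSG00000034701, coding sequence of 1074 nucleotides) had 19 and 8 counts, the lowest sum of the 9 genes at 27. Its level was 47.9 (28.9 to 74.9) in replicate 1 and 66.5 (28.7 to 131) in replicate 2, a mean of 57.2 ± 13.1 (SD, n = 2). Over both libraries, the count per coding kilobase of Neurod6 was 1.92 times that of Neurod1 (95% exact interval 1.18 to 3.20). In replicate 2 alone the order of these point values was the opposite. The ratio of Neurod6 to Neurod2 was 1.33 (0.860 to 2.05), and that of Neurod2 to Neurod1 was 1.45 (0.873 to 2.45), both with intervals that include 1.

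Tbr1 (ENSMUSG00000035033), which marks deep-layer corticothalamic and Cajal-Retzius neurons, had 47 and 11 counts on a coding sequence of 2046 nucleotides. The level was 62.3 CPM per coding kilobase (45.7 to 82.8) in replicate 1 and 48.0 (24.0 to 85.9) in replicate 2, a mean of 55.1 ± 10.1 (SD, n = 2). A shorter coding isoform of Tbr1, of 1257 nucleotides, had 27 and 2 counts. Of 2 Tbr1 transcripts with no coding sequence, 1 had 12 and 3 counts and the other had none. Eomes (Tbr2), the T-box relative that marks intermediate progenitors of the cortex, had 0 counts in either library. With up to 3 counts allowed, its level could be up to 3.83 CPM per coding kilobase in replicate 1 and 12.6 in replicate 2, both below the values of Tbr1. Tbx21, the remaining relative in the list, was also at 0 in both.

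The Bcl11 genes encode Ctip1 (Bcl11a) and Ctip2 (Bcl11b), the latter a marker of subcerebral projection neurons and of striatal medium spiny neurons. Bcl11b (ENSMUSG00000048251, coding sequence of 2655 nucleotides) had 40 and 18 counts, the highest count of the 9 genes in replicate 2. Its level was 40.8 CPM per coding kilobase (29.2 to 55.6) in replicate 1 and 60.5 (35.9 to 95.7) in replicate 2, a mean of 50.7 ± 13.9 (SD, n = 2). Bcl11a (ENSMUSG00000000861, coding sequence of 2322 nucleotides) had 39 and 10 counts. Its level was 45.5 (32.4 to 62.2) and 38.5 (18.4 to 70.7), a mean of 42.0 ± 4.99 (SD, n = 2). The paralogs were not distinguished: Bcl11b held 1.04 times the count per coding kilobase of Bcl11a over both libraries, with an interval from 0.695 to 1.55. On total abundance the picture is different from that per length, because both have long coding sequences. Bcl11b, at 135 CPM ± 37.0 (SD, n = 2), is second among the 9 genes by CPM and seventh per coding kilobase.

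Mef2c (ENSMUSG00000005583), which acts in cortical and other neurons and also in muscle, endothelium and microglia, had 58 and 17 counts on a coding sequence of 1425 nucleotides. Its level was 110 CPM per coding kilobase (83.8 to 143) in replicate 1 and 107 (62.1 to 171) in replicate 2, a mean of 108 ± 2.67 (SD, n = 2). The count per coding kilobase was 2.49 times that of Bcl11a (95% exact interval 1.72 to 3.65) and 2.81 times that of Nfia (1.80 to 4.51) over both libraries. With these transcripts, they were the only pairs of the 9 genes whose interval left out 1 in each library alone. With the longest coding isoforms no pair did: in replicate 2 the ratio to Bcl11a was then 2.04 (0.842 to 5.02) and that to Nfia 1.95 (0.724 to 5.78). The value of Mef2c depends on its isoforms, which are described below: over its 13 isoforms with a coding sequence near the longest, the level ran from 55.7 to 108 with a median of 76.9.

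The nuclear factor I genes were not distinguished in level. Nfib (ENSMUSG00000008575, coding sequence of 1482 nucleotides) had 31 and 10 counts. Its level was 56.7 CPM per coding kilobase (38.5 to 80.5) in replicate 1 and 60.3 (28.9 to 111) in replicate 2, a mean of 58.5 ± 2.52 (SD, n = 2). Nfia (ENSMUSG00000028565, coding sequence of 1497 nucleotides) had 25 and 3 counts, the lowest count of the 9 genes in replicate 2. Its level was 45.3 (29.3 to 66.8) in replicate 1 and 17.9 (3.69 to 52.3) in replicate 2, a mean of 31.6 ± 19.3 (SD, n = 2). Nfib held 1.48 times the count per coding kilobase of Nfia, with an interval from 0.893 to 2.48. Of the other family members, Nfix had 57 and 12 counts and a mean level of 88.1 ± 22.5 (SD, n = 2), and Nfic had 8 and 2 counts and a mean level of 15.4 ± 2.10 (SD, n = 2).

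None of the 8 pairs of neighbours in the order of levels had an interval of their ratio that left out 1. Of all 36 pairs, 15 did over the summed counts, with no adjustment for the number of pairs. In each of the 15 the higher gene was Mef2c, Neurod6 or Neurod2. The lower genes were Nfib, Neurod1, Tbr1, Bcl11b, Bcl11a and Nfia against Mef2c and against Neurod6, and Bcl11b, Bcl11a and Nfia against Neurod2. Replicate 1 alone gave the same 15 pairs and replicate 2 alone gave 2, at 2.86 times fewer gene counts. Of the summed counts of the 9 genes, 335 came from replicate 1 and 92 from replicate 2. Some of the 15 ratios were near 1 in replicate 2. There Neurod6 stood at 1.02 to Nfib, 1.02 to Bcl11b and 0.927 to Neurod1, and Neurod2 at 1.02 to Bcl11b. For the remaining pairs of the 15, the ratio in replicate 2 ran from 1.28 to 5.95. At this depth, and with these transcripts, the 9 genes formed a range in which no neighbours could be told apart.

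Isoforms of the same gene were taken to share fragments, from the agreement of their counts described with the processing below. How the authors counted shared fragments is not known. The counts of isoforms were therefore not treated as independent, and their sum may count fragments repeatedly. The 9 genes had 67 listed transcripts, from 1 for each NeuroD gene to 31 for Mef2c. Bcl11a has 4 coding isoforms. Those of 576 and 732 coding nucleotides had 10 and 20 counts in sum, and those of 2322 and 2508 had 49 and 46. Per coding kilobase these were 17.4, 27.3, 21.1 and 18.3 counts. The isoform with 2508 coding nucleotides is 5989 nucleotides long and that with 2322 is 3061 nucleotides long, and the longer one held no more counts. A retained-intron transcript of Bcl11a, of 5885 nucleotides, had 8 and 2 counts.

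Bcl11b gave a like pattern in replicate 1 and less so in replicate 2. Its isoform of 8111 nucleotides, with a 3' untranslated region of 4997 nucleotides, had 40 counts in replicate 1, against 39 for the isoform of 2888 nucleotides with 178 nucleotides of 3' untranslated region. In replicate 2 the same isoforms had 18 and 11 counts. The third, with 2073 coding nucleotides, had 33 and 8.

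The nuclear factor I genes have 3' untranslated regions much longer than their coding sequences. In Nfia the representative transcript has 1497 coding nucleotides and 7577 nucleotides of 3' untranslated region, for 28 counts in sum. An Nfia isoform of 851 nucleotides in all, 676 of them coding, had 9 counts, or 10.6 counts per kilobase of transcript against 3.03 for the representative. Per coding kilobase they stood closer, at 13.3 and 18.7. Another, of 821 nucleotides that are all coding, had 6 and 0 counts. In Nfib, 4 retained-intron transcripts without a coding sequence had between 22 and 30 counts in sum, near the 21 to 41 of its 5 isoforms with a near-full coding sequence. The longest coding isoform of Nfib, of 1713 nucleotides, had 20 and 10 counts, which puts Nfib at 42.9 CPM per coding kilobase. Whether those fragments come from exons that the transcripts share was not tested, since the table has no positions.

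Mef2c had the widest set. Its 13 isoforms with at least 75% of the longest coding sequence held 40 to 75 counts in sum, and 14 shorter coding isoforms held 2 to 31. Of the 13, an isoform of 1257 nucleotides that are all coding had 31 and 9 counts, close to the 37 and 9 of an isoform of 6217 nucleotides with 1395 coding nucleotides. Isoforms of equal coding length did not carry equal counts: those with 1425 coding nucleotides had 58 and 17, and 59 and 12, while those with 1329 had 41 and 17, and 57 and 13. Taking the highest of 31 isoforms therefore favours Mef2c over a gene with 1 transcript. With the longest coding isoform, Mef2c stood at 88.6 CPM per coding kilobase, beside Neurod6 at 89.0 on that scaling, and with this choice 19 of the 36 pairs had intervals over the summed counts that left out 1, the 15 above and 4 more. The 4 were Neurod2 over Nfib at 2.08 (1.27 to 3.44), neighbours in the order above, Tbr1 over Bcl11a at 1.55 (1.03 to 2.33), Tbr1 over Nfia at 1.67 (1.03 to 2.76), and Nfib over Tbr1 at 0.618 (0.384 to 0.976), which is the reverse of the order above. In replicate 2 alone 0 of the 36 pairs left out 1 with this choice, and in replicate 1 alone 18 did. This choice was tried on the pairs after the data were seen.

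**Figure D2:**
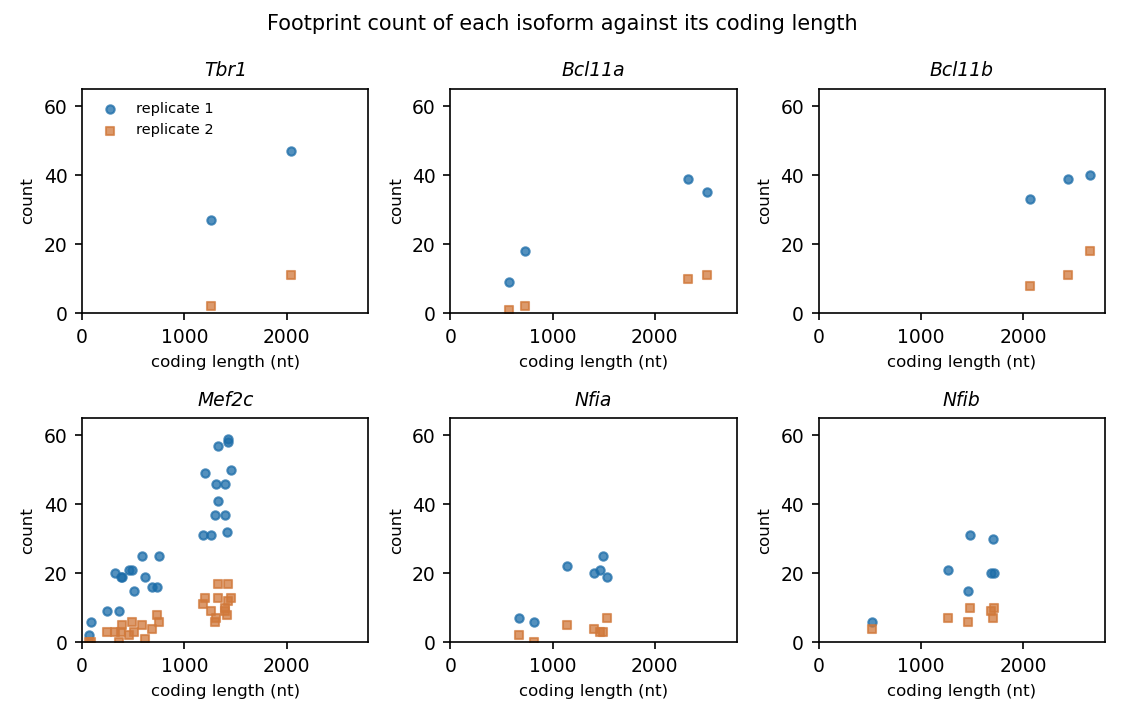
Footprint count (vertical axis) against coding length in nucleotides (horizontal axis) of each isoform with a coding sequence, for the 6 genes with more than 1 isoform, with circles for replicate 1 and squares for replicate 2. In Bcl11a the 2 short coding isoforms have 10 and 20 counts in sum against 49 and 46 for the long ones, while an Nfia isoform of 1143 coding nucleotides has 27, within the 24 to 28 of the near-full ones. Near-full Mef2c isoforms range from 31 to 59 counts in replicate 1.

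The replicates were then compared gene by gene. The log2 ratio sets replicate 2 over replicate 1 after 1 CPM is added to each, which understates changes of low genes, and its standard error covers counting alone. The test is a 2-sided exact binomial test of the counts, with Benjamini-Hochberg adjustment over all 5436 genes that averaged 10 counts or more. It compares these 2 libraries and not conditions. All 9 genes were tested and 0 passed an adjusted p of 0.05, while over all genes tested 225, or 4.14%, passed. Among protein-coding genes scaled and adjusted alone, 22 of 4392, or 0.501%, passed, so a count of 0 in 9 is near the background. At an unadjusted exact binomial p under 0.05 the number of the 9 genes was also 0, and edgeR's exact test with a preset coefficient of variation of 0.2 called 0.

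By log2 ratio, 6 of the 9 genes were lower and 3 higher in replicate 2 (7 and 2 with library totals, where Nfib changed sign), with a median of -0.24, against 0.0041 for all genes tested and -0.016 for the coding ones among them. Library totals in place of TMM scaling moved the median of all tested genes to -0.20 and that of the 9 genes to -0.44. Bcl11b had the highest ratio, 0.56 (SE 0.409, adjusted exact binomial p = 0.837). Nfia had the lowest, -1.31 (SE 0.882, adjusted exact binomial p = 0.842), followed by Neurod6 at -0.85 (SE 0.589, adjusted exact binomial p = 0.842). The ratio of Neurod1 was 0.46 (SE 0.608) and that of Nfib 0.087 (SE 0.525). Mef2c stood at -0.05 (SE 0.398), Bcl11a at -0.24 (SE 0.511), Neurod2 at -0.36 (SE 0.567) and Tbr1 at -0.37 (SE 0.483). All 9 ratios were within 2 standard errors of 0. The 2333 tested coding genes with 27 to 75 counts in sum, the range of the 9 genes, had ratios from -1.10 at the 5th percentile to 0.85 at the 95th, and 8 of the 9 genes were inside, with Nfia below.

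The direction for Nfia depended on the isoform. The representative, with 25 and 3 counts, gave -1.31, while the isoform with the longest coding sequence, of 1530 nucleotides and 19 and 7 counts, gave 0.27 (SE 0.638). Of the 4 near-full Nfia isoforms 1 had a ratio above 0. Bcl11b also varied, from -0.32 to 0.56 over its 3 isoforms, with 1 above 0. Of the 5 near-full Nfib isoforms 4 were above 0, and of the 13 of Mef2c 2 were.

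The depth sets how large a difference could have been called. At the highest unadjusted p that passed, Neurod1 with its 27 counts in sum would have needed 14 or more counts, or 0, in replicate 2, where equal levels give 6.29. Nfia would have needed 15 or more, or 0, around 6.52. For Mef2c, with 75 counts, the limits were 30 or more and 6 or fewer, around 17.5. Smaller differences between the libraries in these genes were not detectable.

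**Figure D3:**
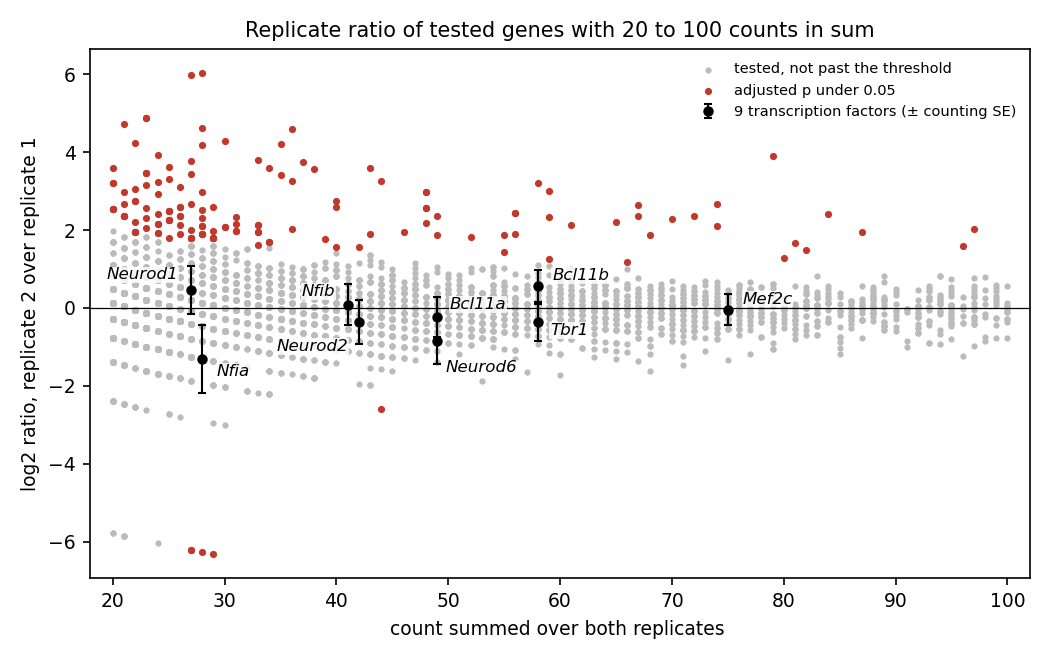
Log2 ratio of replicate 2 over replicate 1 (vertical axis) against the count summed over both replicates (horizontal axis) for tested genes with 20 to 100 counts in sum, with genes past an adjusted p of 0.05 in red and the 9 transcription factors in black with counting standard errors. The 9 genes lie within the grey cloud, from -1.31 for Nfia to 0.56 for Bcl11b.

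Other transcription factors of the same tissue were taken from 5 lists made for this purpose: paralogs of the 9 genes, and cortical, cerebellar, subpallial and general neuronal factors. All 92 were matched in the table. Of these, 32 reached a mean of 10 counts. By the exact binomial test 0 of the 32 differed between the libraries after adjustment and 2 had an unadjusted p under 0.05, while edgeR's exact test with the preset coefficient of variation called 0. The median log2 ratio of the 32 was -0.20. The median level of these other factors was 18.4 CPM per coding kilobase over all 92 and 59.4 over the 32. It was 57.2 for the 9 genes, all of which averaged 10 counts or more. Among the 101 factors together the 9 genes held ranks from 9 for Mef2c to 36 for Nfia.

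By list, 14 of 26 cortical factors were tested, with a median level over the 26 of 24.2 CPM per coding kilobase. Their highest levels were 222 for Lmo4 and 143 for Lmo3, LIM-only cofactors with short coding sequences, then 113 for Bhlhe22 and 108 for Zbtb18. The level of Lmo3 was 66.3 with its longest coding isoform. Of 24 cerebellar factors 4 were tested, with a median level of 12.9 over the 24. Zic1 and Zic2, zinc finger factors of the granule lineage, led them at 131 and 91.4. The subpallial list, with 2 of 16 tested, had a median of 15.0, and Maf led it at 79.8. With its longest coding isoform Maf stood at 57.9. The general neuronal list, with 10 of 16 tested, had a median of 34.6 and was led by Sox4 at 245, Jund at 184 and Sox11 at 144.

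Among the paralogs, 2 of 10 were tested, Nfix and Mef2a. Mef2a had 22 and 5 counts, and its level of 172 CPM per coding kilobase rests on a representative with 303 coding nucleotides. With its longest coding isoform, of 1497 nucleotides and 19 and 3 counts, it stood at 26.8, below Mef2c at 88.6 by the same choice. Mef2d stood at 21.0 and Mef2b had 2 and 0 counts. Neurod4 had 0 and 1 counts, Neurog1 had 1 and 0, and Neurog2, a proneural factor of dividing progenitors, had none.

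**Figure D4:**
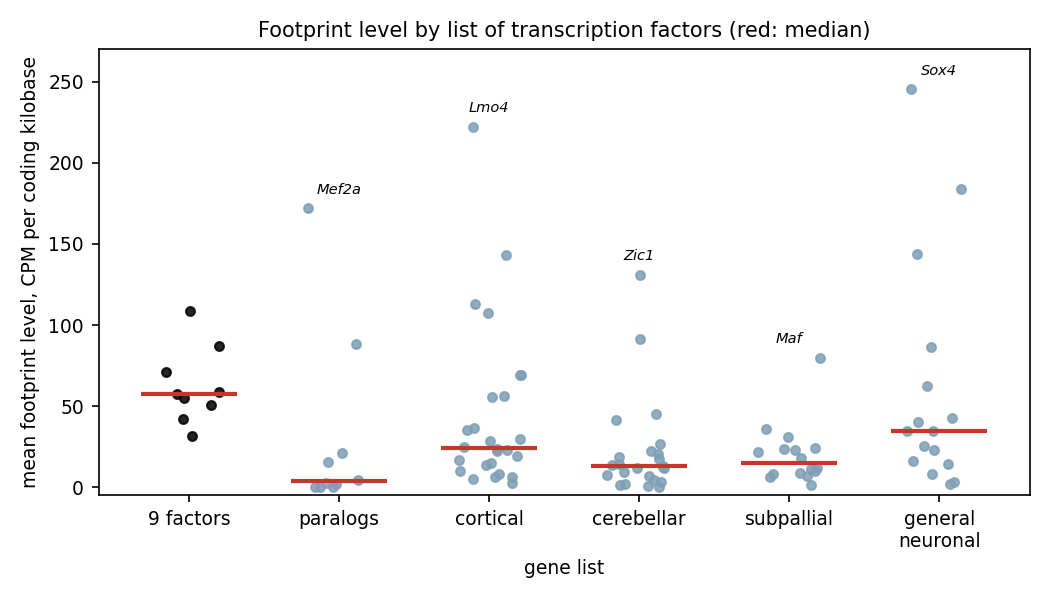
Mean footprint level in CPM per coding kilobase (vertical axis) of the 9 genes and of 5 other lists of transcription factors, with 1 point per gene and a red line at each median. The 9 genes lie between 31.6 and 108 with a median of 57.2, and the medians of the other lists lie between 3.58 and 34.6. Those lists include genes that averaged under 10 counts, while all 9 genes reached that mean. Over the 32 other factors that reached it, the median was 59.4. The highest gene of each other list is named, and Mef2a is plotted on its 303-nucleotide coding isoform.

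With 2 libraries no likeness of pattern over samples can be measured, so factors with a near level were listed for each gene. For Mef2c these were Zbtb18 and Bhlhe22, at 108 and 113 CPM per coding kilobase. For Neurod6 they were Klf7 at 86.2 and Nfix at 88.1. Neurod2 stood beside Pou3f3, a cortical factor at 68.9. Pou3f1 at 55.6 was among the nearest to Neurod1, Tbr1 and Nfib alike. Bcl11b was nearest to Pou3f1 and to Mycn at 44.9, Bcl11a to Meis2 at 41.4 and Scrt1 at 42.9, and Nfia stood beside Rorb at 29.6.

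The genes of proteins that work with these factors were read in the same way. Of 15 partners, which include E proteins that pair with NeuroD factors, class IIa histone deacetylases that bind Mef2 and subunits of BAF complexes, 11 were tested and 0 differed between the libraries by the exact binomial test, before or after adjustment, or by edgeR's exact test. Their median level was 23.1 CPM per coding kilobase. The BAF subunits Smarcb1 and Smarcd1 stood at 115 and 82.0, Actl6b, the subunit specific to neurons, at 67.8, and Smarcc2 at 53.0. Of 10 genes known as targets, 6 were tested and 0 differed by the same tests. Gfap, an astrocyte gene that nuclear factor I proteins act on, stood at 110 ± 10.4 (SD, n = 2). Reln, regulated by Tbr1, had 116 and 29 counts on a coding sequence of 10386 nucleotides and a level of 27.6 ± 3.77 (SD, n = 2). Grin2b, another Tbr1 target, stood at 45.0 ± 1.63 (SD, n = 2). Gabra6, a gene of mature cerebellar granule neurons, had 0 counts in either library, which allows up to 3 in each.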

How the data were processed

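Footprints were measured in 2 RiboLace libraries of 1 group. The authors deposited 1 table of raw counts per transcript and replicate, with lengths of the transcript and its regions as other columns. Per the submitters' processing notes, Trimmomatic 0.36, Bowtie2 2.2.6 and SAMtools were used with build GRCm38.p4. The counting tool and annotation release are not given in the sources used here, so no coordinates are printed. Each count column was assigned to a replicate by its number and by the terms for control and RiboLace. A further word in the column names, early, is absent from the labels.

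For pairs of isoforms with equal coding length, at least 20 counts and untranslated regions that differ by under 300 nucleotides, the mean chi-square of their counts in replicate 1 was 0.251 in genes with 2 isoforms and 0.813 in genes with 13 or more. In replicate 2 it was 0.453, 0.437, 0.472 and 0.651 in genes with 2, 3 to 5, 6 to 12 and 13 or more isoforms. Independent counts give 1, so fragments were taken to be shared by several isoforms, least completely in genes with 13 or more.

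Symbols are transcript names without their 3-digit suffix, and 9 of 9 had the same symbol in the name table. CPM came from gene totals with TMM factors of 1.07 and 0.931 (edgeR 4.0.16, R 4.3.3) over genes that averaged 10 counts or more. The exact binomial test, at an adjusted threshold of 0.05, was tested on simulated data first. Those data held counting error alone, with no further variation between replicates and no TMM scaling. Ratios of levels carry exact conditional binomial intervals, levels exact Poisson intervals and shares Wilson intervals, all at 95%. The labels say nothing on separate animals beyond "biological replicate", so the SD measures only the spread between these libraries. The exact binomial p-values set the difference of the libraries against counting error alone and hold no estimate of variation between replicates.

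The members and lists were chosen with earlier results of these data known. The genes named are the 9 members, up to the 4 highest levels of each list, the 2 nearest factors for each member (some are not reported here) and, chosen after their values were seen, Eomes, Tbx21, Neurod4, Neurog1, Neurog2, Mef2b, Reln and Gabra6. The alternatives were DESeq2 1.42.0 size factors, library totals, other count filters, other isoforms, coding genes alone, transcript length and a pseudocount of 0.1.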

Additional observations from a re-analysis of the deposited data

How the results depend on the processing

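No paired analysis was possible because the samples form a single group. None of the 9 genes was called under any alternative that tested them, with all isoforms summed giving the lowest adjusted exact binomial p, 0.103; a mean of at least 50 counts left 0 of the 9 to test. Leaving out a replicate leaves no test. Over all genes, the 225 calls among 5436 genes became 75 with that filter, which leaves 764 genes. With no count filter they became 270 of 20980. They became 131 of 5436 with the preset coefficient of variation and 22 of 4392 for coding genes alone. With isoforms summed they became 605 of 8366, of which 383 were higher in replicate 2 against 217 of 225. Such a sum may count fragments repeatedly. Coding genes alone and the isoform choices were added for this count after the data were seen. The share held by the 9 genes went from 0.087% to 0.201% with isoforms summed and to 0.112% of coding counts, whose total is smaller, and ran from 0.0765% to 0.0975% with each replicate left out. The median level of 57.2 CPM per coding kilobase ran from 56.7 to 60.5 with a replicate left out. It became 26.0 per kilobase of whole transcript, which is longer by construction. The order on that length was Neurod6, Mef2c, Bcl11a, Tbr1, Neurod2, Neurod1, Bcl11b, Nfib and Nfia. Ratios of pairs were not computed on it. Summing isoforms put Mef2c, Nfib and Nfia first and the NeuroD genes, with 1 transcript each, last. The sign of the log2 ratio changed in at least 1 of 6 alternatives for Bcl11a, Nfia and Nfib and in none for the other 6 genes. Over those alternatives Nfia ran from -1.51 to 0.28. Depth limits each gene to 27 to 75 counts in all.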
